A study of Mus musculus with 6 samples.

Results

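The 37 genes described here encode proteins of synaptic vesicles and proteins that dock, fuse and retrieve them. They were given as a list, and each gene was read from a row of the deposited array table whose platform annotation names that gene and no other; where 2 rows did, the row with the higher mean over the 6 arrays was kept. All 37 listed genes were found, among 22180 genes that were named alone by at least 1 row. Only Syp, Rab3c and Bsn had a second row.

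The arrays held RNA labelled as whole hippocampus from male mice of the inbred strain C57BL/6J, with 3 arrays from mice given ethanol as newborns and 3 from mice given saline. Ethanol was injected under the skin at 2.5 g/kg in 0.15 M NaCl, and both groups were injected on postnatal days 4 and 7, 2 times a day with 2 hours between. Groups were formed within litters, each array carried RNA pooled from 3 mice, 18 mice were used in all, and the litters behind each pool are not named. The sample records give an age of 21 days, whereas the treatment protocol has the mice killed on day 70, so the age at collection is uncertain. The question of the comparison is whether exposure in the first week of life leaves a difference in brain expression weeks later.

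At a nerve terminal, vesicles filled with transmitter are tethered at the active zone, primed and fused with the plasma membrane when calcium enters. Fusion is driven by the zippering of SNARE proteins on the vesicle (synaptobrevins, the Vamp genes) with those on the plasma membrane (syntaxin and SNAP-25). Synaptotagmins sense the calcium, complexins hold and release the assembled SNAREs, and the spent complex is taken apart by NSF before the membrane is retrieved by endocytosis. The genes are expressed by neurons throughout the brain, with Syt2 and Vamp1 known as the prominent forms in hindbrain and other caudal regions.

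No row of the table differed between the groups after adjustment over all 41345 rows (limma with Benjamini-Hochberg adjustment at 0.05; 0% of rows called, with 2290 rows at an unadjusted p under 0.05). Values are log2 expression values, on which a difference of 1 is a 2-fold change, and differences are ethanol minus saline with the standard error of the limma fit. Each row has its own probes, so levels of different genes describe the arrays and are not tested against each other. Before the results, the arrays have to be described. Over all rows, saline array 1 was nearer to the 3 ethanol arrays (Pearson's r of 0.990 to 0.992) than to saline array 2 or 3 (0.987 each). Saline array 3 was also nearer to the ethanol arrays (0.989 to 0.990) than to saline array 1 (0.987) or 2 (0.988), so this trait is not particular to 1 array. The spread of values over all rows (interquartile range) was narrowest on saline array 2, at 2.51, and widest on ethanol array 2, at 2.67. On the other arrays it was 2.58 to 2.61. The part of this spread in the differences between groups was not tested. Results are given with and without saline array 1, since leaving it out moved the count of members without overlap most. That choice was made from the members' own values. For the labelled tissue, 15 markers of hippocampal neurons had a median level of 7.26, from Emx2 at 5.28 to Calb1 at 12.28, against 7.10 for the median gene. Calb1 is also a gene of cerebellar Purkinje cells. The 12 cerebellar markers had a median of 10.96, from Neurod1 at 8.12 to Car8 at 12.44, and what these levels say of the tissue was not tested. In bulk RNA, a change in the number of neurons and a change in RNA per neuron cannot be told apart.

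Most release machinery genes lay slightly higher in the ethanol pools, none passed the test, and the shift was of the size seen in other brightly measured genes. The difference was above 0 in 34 of 37 members, with a median of 0.06, against 57.2% of all genes and a median of 0.02. None of the 37 reached even an unadjusted p of 0.05 in limma, a level that 3.18% of genes reached, and their adjusted p-values ran from 0.857 to 0.969. Ethanol and saline values did not overlap, with ethanol higher, in 1 member, Sv2b, against 5.74% of genes. They did not overlap with ethanol lower in 0 members, against 4.72% of genes.

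**Figure D1:**
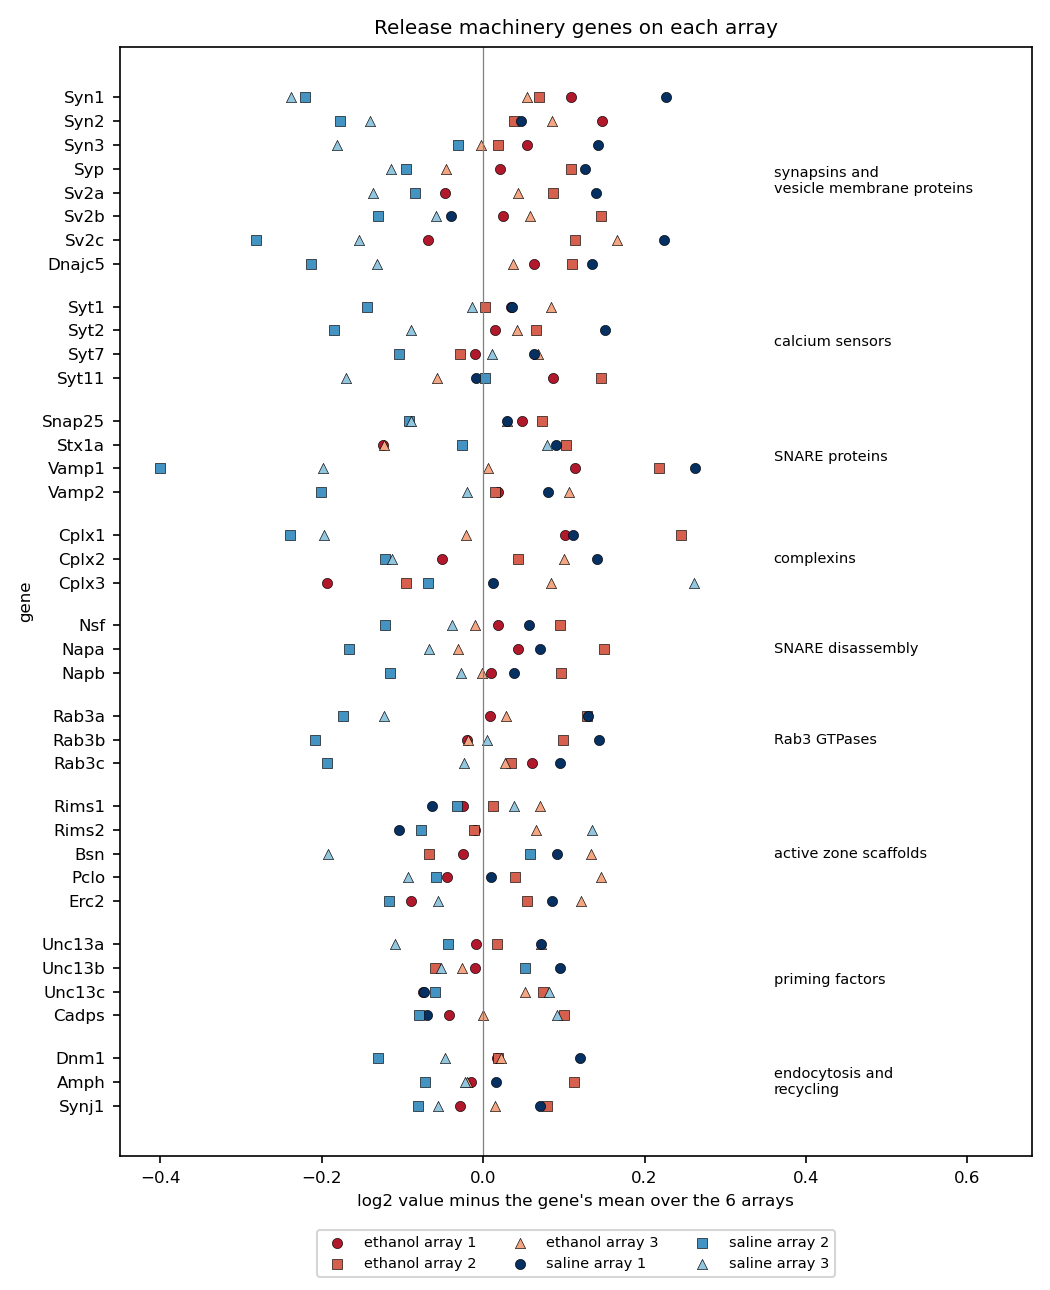
Each point is the log2 value of 1 gene on 1 array minus that gene's mean over the 6 arrays, with ethanol arrays in red and saline arrays in blue, and genes grouped by role. Saline array 2 was the lowest array for 23 of the 37 genes, and saline array 1 was the highest for 14. The points of the saline group therefore lie on both sides of the ethanol points. Saline array 2 was also the lowest for 29.7% of all genes. In the brightest of 10 groups by mean, it was the lowest for 62.2% of the genes outside the list. There it was the lowest for 20 of 29 members. Saline array 1 was the highest for 21.2% of all genes and 17.1% of those other bright genes.

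The vesicle's own proteins held the genes with the smallest p-values. All 8 synapsins and vesicle membrane proteins lay higher in ethanol, with a median difference of 0.14. Syn2 (chr6:115134902-115282626, GRCm38), a synapsin that ties vesicles into the reserve pool, read 11.54, 11.43 and 11.47 on the ethanol arrays and 11.43, 11.21 and 11.25 on the saline arrays. Its lowest ethanol value and its highest saline value were the same at 2 decimals, and it differed by 0.18 ± 0.09 (SE, 3 arrays against 3; limma, unadjusted p = 0.0801, adjusted p = 0.857). Sv2b (chr7:75114894-75309262), a vesicle glycoprotein of the transporter-like SV2 family, read 11.25, 11.37 and 11.28 in ethanol and 11.18, 11.09 and 11.16 in saline. Sv2b was the member whose 3 ethanol values all exceeded its 3 saline values, and it differed by 0.15 ± 0.08 (limma, unadjusted p = 0.0817, adjusted p = 0.857). Sv2c (chr13:95959443-96132577), the family member best known from basal ganglia and brainstem, read 8.28, 8.46 and 8.51 in ethanol and 8.57, 8.07 and 8.19 in saline. Its highest value of all was on saline array 1 and its range over the arrays, 0.51, was the second widest among the members.

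The other 5 vesicle proteins were each highest on saline array 1, as Sv2c was. Syn1, the most studied synapsin, read 10.86, 10.82 and 10.80 in ethanol and 10.98, 10.53 and 10.51 in saline; it was singled out after its values were seen, for having the smallest p without saline array 1. Its ethanol values lay close together while its saline values fell on either side of them. Dnajc5, which encodes the chaperone CSP-alpha that keeps SNAP-25 folded, averaged 9.98 ± 0.04 in ethanol and 9.84 ± 0.18 in saline (SD, n = 3 arrays). Syp, synaptophysin, the standard vesicle marker, averaged 11.59 ± 0.08 and 11.54 ± 0.13, Sv2a, the binding site of the antiepileptic drug levetiracetam, 10.34 ± 0.07 and 10.28 ± 0.15, and Syn3 8.80 ± 0.03 and 8.75 ± 0.16. Syp's second row, a dim one, differed by 0.01.

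The SNARE genes held both the largest positive difference and 1 of the 3 members that lay lower. Vamp1, a synaptobrevin of fast synapses, read 9.75, 9.85 and 9.64 in ethanol and 9.90, 9.23 and 9.43 in saline. Its range of 0.66 was the widest of any member, and the widest gap lay inside the saline group, between arrays 1 and 2; it differed by 0.22 ± 0.17 between the groups (limma, adjusted p = 0.865). Stx1a, the plasma membrane syntaxin, read 7.93, 8.15 and 7.93 in ethanol and 8.14, 8.02 and 8.13 in saline. Ethanol array 2 lay with the saline arrays, and the difference was -0.10 ± 0.09. Vamp2, the main synaptobrevin of forebrain, averaged 10.05 ± 0.05 and 9.96 ± 0.14, and Snap25 averaged 13.10 ± 0.02 and 13.00 ± 0.07 (SD, n = 3).

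Among complexins, which clamp and then promote SNARE-driven fusion, Cplx1 and Cplx3 lay in opposite directions. Cplx1 read 11.71, 11.85 and 11.58 in ethanol and 11.72, 11.37 and 11.41 in saline, a difference of 0.22 ± 0.12 (limma, unadjusted p = 0.12, adjusted p = 0.857). Saline array 1 lay among the ethanol values and both other saline arrays lay below them. Cplx3, known from ribbon synapses of the retina, read 7.11, 7.21 and 7.39 in ethanol and 7.32, 7.24 and 7.57 in saline. The groups overlapped, and its difference of -0.14 ± 0.12 was the lowest of the 37. Cplx2 averaged 9.86 ± 0.08 in ethanol and 9.80 ± 0.15 in saline (SD, n = 3 arrays).

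The 4 synaptotagmins, listed as calcium sensors although Syt11 does not bind calcium, all lay higher, by a median of 0.08, each by less than 2 standard errors. Syt1, the fast sensor of forebrain synapses, averaged 11.21 ± 0.04 in ethanol and 11.13 ± 0.09 in saline (SD, n = 3 arrays), and Syt2, its faster hindbrain counterpart, differed by 0.08 ± 0.10 (SE). Syt7, the slow sensor of asynchronous release and facilitation, averaged 9.60 ± 0.05 and 9.58 ± 0.09. Syt11 averaged 11.03 ± 0.10 and 10.92 ± 0.10 and had the largest difference of the 4, 0.12 ± 0.09.

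The genes for taking SNAREs apart were high and low on the same arrays. Nsf, the ATPase, averaged 11.08 ± 0.05 in ethanol and 11.01 ± 0.09 in saline, and its adaptors Napa and Napb, the alpha- and beta-SNAPs, 9.78 ± 0.09 against 9.68 ± 0.12 and 10.69 ± 0.05 against 10.62 ± 0.08 (SD, n = 3). All 3 were highest on ethanol array 2 and lowest on saline array 2. Both traits were common in genes as bright as these. Among bright genes outside the list, ethanol array 2 was the highest for 50.7% and saline array 2 the lowest for 62.2%. Whether these 3 genes move together more than other bright genes was not tested. The 3 Rab3 GTPases, which carry vesicles to the active zone, were each highest on saline array 1 and lowest on saline array 2. Rab3a averaged 11.36 ± 0.06 in the ethanol group and 11.25 ± 0.16 in the saline group, Rab3b 7.90 ± 0.07 and 7.86 ± 0.18, and Rab3c 9.63 ± 0.02 and 9.55 ± 0.15 (SD, n = 3). The second Rab3c row differed by -0.02.

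Active zone scaffolds and priming factors were, with the endocytosis genes, the roles that differed least, with a median of 0.04 in each. Rims1 and Rims2, which bind Rab3 and calcium channels, averaged 10.12 ± 0.05 against 10.08 ± 0.05 and 9.66 ± 0.04 against 9.63 ± 0.13. The giant scaffolds Bsn and Pclo, bassoon and piccolo, averaged 8.69 ± 0.11 against 8.66 ± 0.15 and 10.04 ± 0.10 against 9.95 ± 0.05, and Erc2 averaged 7.88 ± 0.11 against 7.82 ± 0.10 (ethanol against saline, SD, n = 3). The second row of Bsn differed by -0.10, opposite in sign to the row kept. The Munc13 priming factors Unc13a and Unc13c, the latter a form of cerebellar granule cells, averaged 9.51 ± 0.04 against 9.45 ± 0.09 and 10.32 ± 0.08 against 10.29 ± 0.09. Unc13b (chr4:43046193-43264873) read 7.76, 7.71 and 7.74 in ethanol and 7.86, 7.82 and 7.71 in saline, so only saline array 3 fell among the ethanol values, and the difference was -0.06 ± 0.08. Cadps, which primes dense-core vesicles, averaged 10.45 ± 0.07 against 10.41 ± 0.10.

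The 3 endocytosis genes differed by a median of 0.04. Dnm1, the neuronal dynamin that cuts vesicles from the membrane, read 12.24 on each ethanol array and 12.34, 12.09 and 12.17 on the saline arrays; it was given on every array for this evenness, seen in the values. Amph, amphiphysin, averaged 10.88 ± 0.08 in ethanol and 10.83 ± 0.04 in saline, and the phosphatase Synj1, synaptojanin, 9.91 ± 0.05 and 9.87 ± 0.08 (SD, n = 3).

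Forms of the same protein were compared within each array, by the difference between both log2 values, to ask whether exposure went with a shift between them. For 8 pairs, exact permutation tests (two-sided, 3 arrays against 3, smallest possible p 0.1) gave adjusted p-values of 1 throughout, and in none did the groups separate. The widest shifts were in Cplx1 minus Cplx2, 1.85 ± 0.17 in ethanol and 1.70 ± 0.04 in saline (SD, n = 3; exact p = 0.4), and in Vamp1 minus Vamp2, -0.30 ± 0.15 and -0.44 ± 0.21 (exact p = 0.4). Sv2a minus Sv2b shifted by -0.10 (exact p = 0.4). The pairs Syt1 and Syt2, Syn1 and Syn2, Rab3a and Rab3c, Unc13a and Unc13c, and Rims1 and Rims2 shifted by -0.03 to 0.03. With 3 arrays against 3, this exact test cannot reach a p under 0.05.

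The regions before the start sites are shown for the 2 members with the largest positive difference, for Syn1, and for the 2 with the lowest difference, since many members were high or low on the same arrays. Each is the 250 bases before the start, 5′ to 3′ on the gene's strand, from RefSeq on GRCm38.p6. Capitals mark the letters searched: GGGCGG, the Sp1 box, TGACGTCA, the cyclic AMP response element, TATAAA, the TATA box, and TTCAGCACC, the left part of the element bound by the neuronal repressor REST, each on both strands.

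Vamp1: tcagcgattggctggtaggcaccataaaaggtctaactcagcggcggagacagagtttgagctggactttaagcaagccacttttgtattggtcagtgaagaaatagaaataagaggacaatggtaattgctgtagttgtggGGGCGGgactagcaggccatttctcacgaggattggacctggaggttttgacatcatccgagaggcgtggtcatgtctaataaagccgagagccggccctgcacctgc
Cplx1: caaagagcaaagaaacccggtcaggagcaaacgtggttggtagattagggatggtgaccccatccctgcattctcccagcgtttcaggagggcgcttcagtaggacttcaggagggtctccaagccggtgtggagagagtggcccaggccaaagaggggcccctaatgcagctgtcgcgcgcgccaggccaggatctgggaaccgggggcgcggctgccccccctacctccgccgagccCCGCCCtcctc
Syn1: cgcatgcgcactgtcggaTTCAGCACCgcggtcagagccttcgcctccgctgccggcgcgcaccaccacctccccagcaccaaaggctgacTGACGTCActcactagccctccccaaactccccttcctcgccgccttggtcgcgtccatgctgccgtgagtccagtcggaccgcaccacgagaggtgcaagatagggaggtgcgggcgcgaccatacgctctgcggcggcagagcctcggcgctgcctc
Stx1a: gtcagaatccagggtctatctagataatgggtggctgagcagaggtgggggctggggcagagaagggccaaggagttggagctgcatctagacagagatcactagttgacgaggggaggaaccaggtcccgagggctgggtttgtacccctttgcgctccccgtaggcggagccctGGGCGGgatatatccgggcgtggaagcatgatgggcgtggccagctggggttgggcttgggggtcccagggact
Cplx3: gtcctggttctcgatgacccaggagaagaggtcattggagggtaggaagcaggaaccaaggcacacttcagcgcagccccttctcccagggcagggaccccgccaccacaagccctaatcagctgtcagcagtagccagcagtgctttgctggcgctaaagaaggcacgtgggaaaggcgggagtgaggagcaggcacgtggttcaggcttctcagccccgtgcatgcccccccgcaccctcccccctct

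The Vamp1 window lies at chr6:125215331-125215580 on the plus strand, with 1 Sp1 box 108 bases before the start. That of Cplx1 lies at chr5:108550028-108550277 on the minus strand, with an Sp1 box on the opposite strand 11 bases before the start. Syn1's, at chrX:20920919-20921168 on the minus strand, holds a cyclic AMP response element 159 bases and the REST letters 232 bases before the start. Stx1a's, at chr5:135023232-135023481 on the plus strand, holds an Sp1 box 74 bases before the start, and Cplx3's, at chr9:57606282-57606531 on the minus strand, holds none of the letters searched. Distances are to the first base of the match on the gene's strand.

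Over all members, 31 had at least 1 window and gave 39 windows, some genes having several starts. The Sp1 box was in 21 of the 39 windows (53.8%), of 20 members, against 32.7% of 32851 windows of all genes, and the median GC content was 60.8% against 52.4%. Syn1 was the only member with the cyclic AMP response element, which 1.55% of all windows hold, or with the REST letters, which 0.301% hold. The TATA box was in 3 member windows (7.69%), of Rab3b and Sv2b, against 12.4% of all. Vamp1 and Cplx1, with the largest differences above 0, and Stx1a, below 0, had the Sp1 box, and Cplx3 and Syn1 did not. The genes Dnajc5, Rims2, Snap25, Syn3, Syt7 and Vamp2 had no window.

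The members were bright on these arrays, and most other genes of their brightness also lay higher in ethanol. When the 22180 genes were ordered by mean and cut into 10 equal groups, 29 of 37 members fell in the brightest group, which began at 9.33. All 29 lay higher in ethanol, with a median of 0.08. In the 2189 other genes of that group 92.7% lay higher, also with a median of 0.08. Values did not overlap, with ethanol higher, in 1 of the 29 members and in 13.0% of these other genes. The 3 members that lay lower, Stx1a, Cplx3 and Unc13b, were outside the brightest group.

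**Figure D2:**
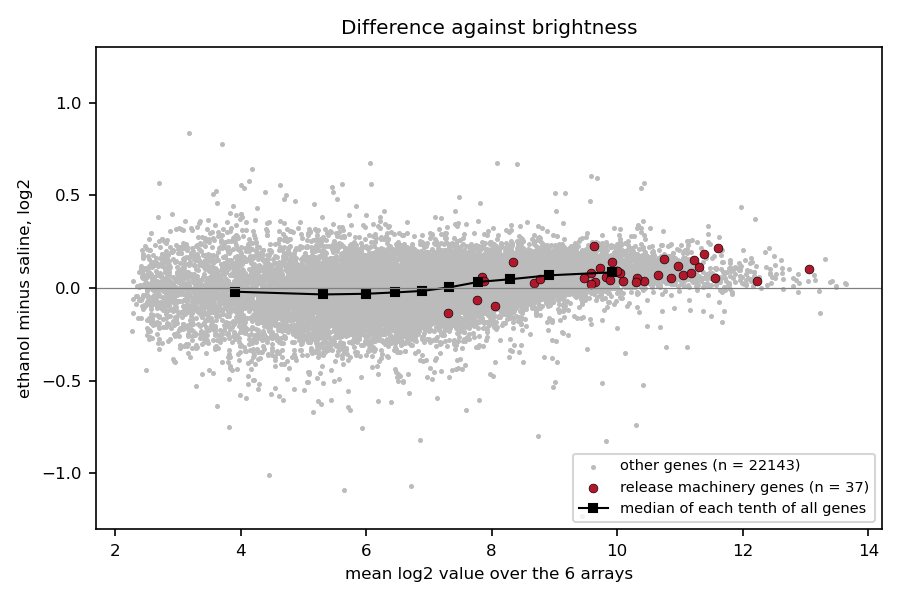
Each point is 1 gene, with its mean log2 value over the 6 arrays on the x axis and ethanol minus saline in log2 on the y axis; red points are the 37 release machinery genes and black squares the median of each of the 10 groups by brightness. The medians are higher in brighter groups, and the members lie around that line, with a median of 0.08 for the 29 in the brightest group.

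Direction depended on the scaling between arrays for 17 of 37 members, while 17 lay above 0 and 3 below 0 under all 4 scalings. Quantile normalization left 19 members higher and 18 lower with a median of 0.01, and cyclic loess left 17 higher and 20 lower with a median of -0.01, whereas centring on each array's median kept 34 and 3 with a median of 0.10. The same scalings gave all genes a median of 0.02, 0.01 and 0.06, and left 57.9%, 54.5% and 70.5% of them higher. Vamp1 differed by 0.16, 0.15 and 0.26 under quantile, loess and centring, Cplx1 by 0.16, 0.13 and 0.26, Syn2 by 0.13, 0.09 and 0.22, and Sv2b by 0.09, 0.07 and 0.19. Cplx3, Stx1a and Unc13b stayed below 0 under all 3. Members of small difference, such as Rims1, Rims2, Unc13c, Cadps, Dnm1, Sv2a and Syt7, were above 0 as deposited and below 0 under both quantile normalization and loess.

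**Figure D3:**
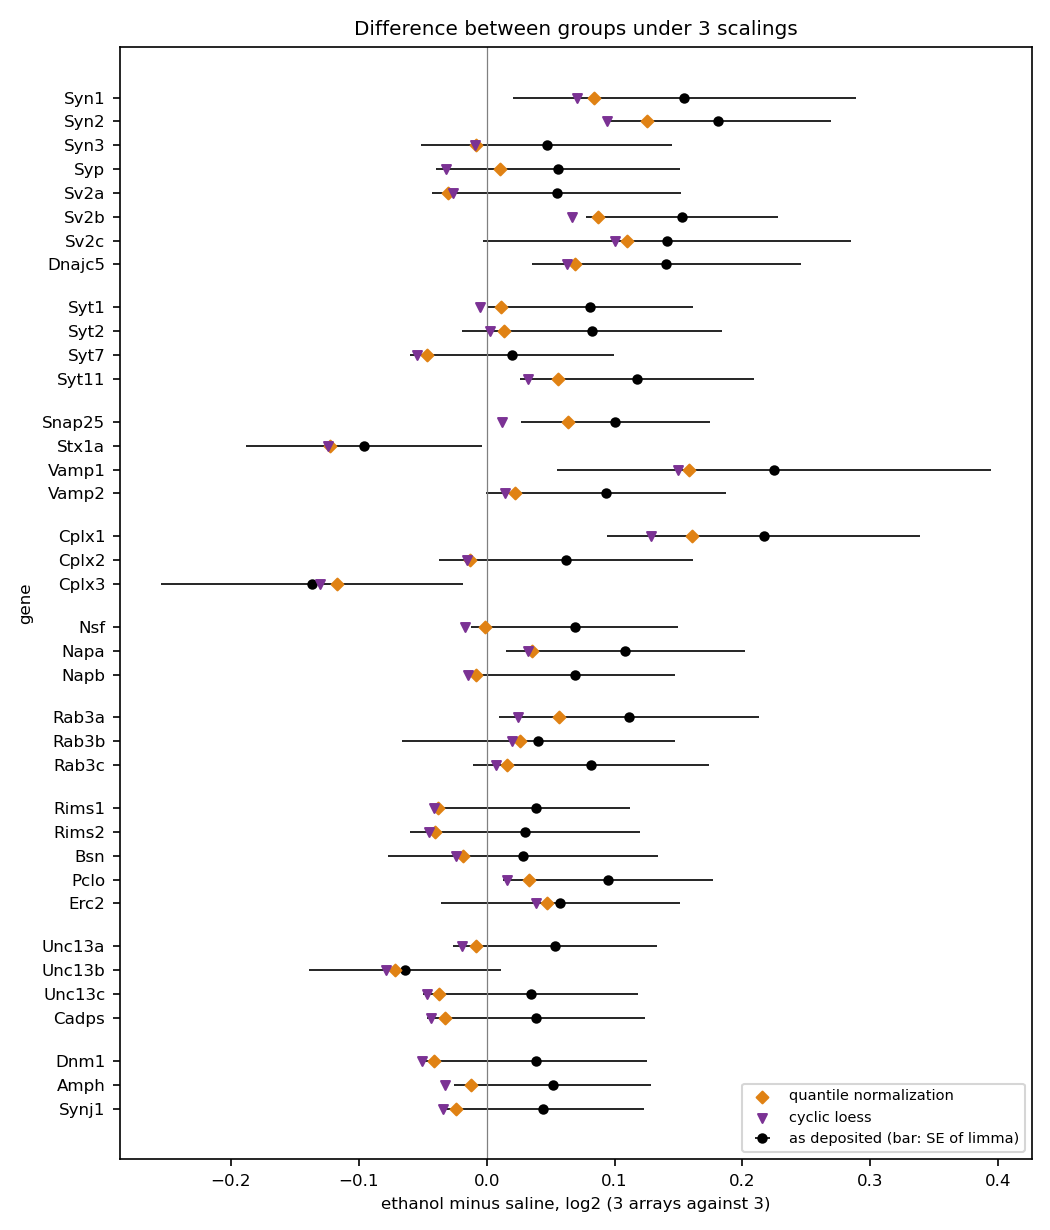
Ethanol minus saline in log2 for each member, with black points and bars for the deposited values and the standard error of the limma fit (3 arrays against 3), orange diamonds after quantile normalization and purple triangles after cyclic loess. Most members sit higher as deposited than under quantile normalization and loess, where 18 and 20 of 37 fall below 0.

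The members varied more among the saline arrays than among the ethanol arrays. The range over the saline arrays exceeded that over the ethanol arrays in 31 of 37 members, against 60.6% of all genes and 68.6% of the other genes of the brightest group. The highest and the lowest array were both saline in 14 of 37, against 25.6% and 24.8%. Saline array 1 exceeded both other saline arrays in 31 of 37 members, against 42.1% of all genes and 58.2% of the other genes of the brightest group. Saline arrays 2 and 3 both lay below the 4 remaining arrays in 25 of 37, against 15.0% and 40.5%. The median gap of saline array 1 above the mean of the other saline arrays was 0.16 in log2 over the members, 0.08 over the other genes of the brightest group and 0.04 over all genes. Saline array 1 was the highest array for 14 of 37 members, against 21.2% of all genes and 17.1% of the other bright genes. It was so for 22, 18 and 7 members under quantile normalization, loess and centring, where the share of all genes was not counted.

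This gap is given by role as a median over the role's genes. It was 0.26 in the complexins, where Cplx3 alone ran the other way at -0.08, 0.25 in the synapsins and vesicle membrane proteins and 0.24 in the Rab3 GTPases. It lay at 0.16 in the SNARE proteins, 0.14 in SNARE disassembly and in endocytosis, and 0.11 in the calcium sensors. It was 0.09 in the active zone scaffolds and 0.01 in the priming factors. Saline arrays 2 and 3 lay below the 4 remaining arrays in 8 of 8 vesicle membrane genes, 3 of 3 SNARE disassembly genes and 3 of 3 endocytosis genes, but in 1 of 5 scaffolds (Pclo) and 1 of 4 priming factors (Unc13a). The roles hold 3 to 8 genes on the same 6 arrays, and the difference between roles was not tested.

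Leaving out saline array 1 widened the difference and still called no member. The array was picked by its effect on the members' count, so an excess of members over other genes was favoured in advance. Without it 33 members lay higher with a median of 0.12, and ethanol values all exceeded saline values in 25 of 37, against 18.2% of all genes and 46.5% of the other bright genes. Among the 29 bright members the count was 23. Ethanol was lower without overlap in 0 members, against 9.08% of genes. In limma, 6 members then had an unadjusted p under 0.05, a level reached by 5.83% of genes: Syn1 at 0.31, Vamp1 at 0.41, Cplx1 at 0.33, Syn2 at 0.25, Dnajc5 at 0.24 and Sv2c at 0.29, of which 4 belong to the synapsins and vesicle membrane proteins. Their adjusted p-values were 0.413 or higher. Under quantile normalization and loess the count without overlap was 12 and 11, against 17.7% and 14.9% of all genes, and under loess 1 member was lower without overlap. Leaving out saline array 2 instead narrowed the difference: 30 members lay higher and 7 lower with a median of 0.03, Vamp1 went from 0.22 to 0.08 and Sv2c from 0.14 to 0.04. The median was 0.06 to 0.08 when any of the 4 remaining arrays was left out.

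Markers of regions and cells also moved on saline array 1. The 10 thalamic genes lay 0.15 above their own means there, by the median, and their summed level was 86.66 on saline array 1 against 83.33 to 83.42 on the other saline arrays and 83.59 to 84.54 on the ethanol arrays. Within this list Tcf7l2, a transcription factor of thalamic neurons, read 8.47 on that array and 7.00 to 7.17 on the 5 others. Slc17a6, the vesicular glutamate transporter of subcortical neurons, read 8.66 there and 7.94 to 8.29 elsewhere. The 15 hippocampal genes lay 0.08 above their means on saline array 1, with 115.61 to 116.88 summed in saline and 115.43 to 115.98 in ethanol, and the 9 microglial genes 0.13 above. The 12 cerebellar genes lay 0.02 below theirs on that array, and summed to 129.10 to 129.78 in saline and 130.18 to 130.61 in ethanol, without overlap. For comparison, the 2189 other genes of the brightest group summed to 21928.6 to 22196.4 in saline and 22184.1 to 22362.6 in ethanol, which overlapped slightly. Whether the cerebellar genes differ from other bright genes in this was not tested. The dimmest markers of these lists were Emx2, a hippocampal one, at 5.28 and Ptprc, a microglial one, at 5.54. The median gene read 7.10. Calb2 stands in both the thalamic and the cerebellar list, and no member is in a marker list. The part of these regional and cell differences in the release machinery values was not tested.

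**Figure D4:**
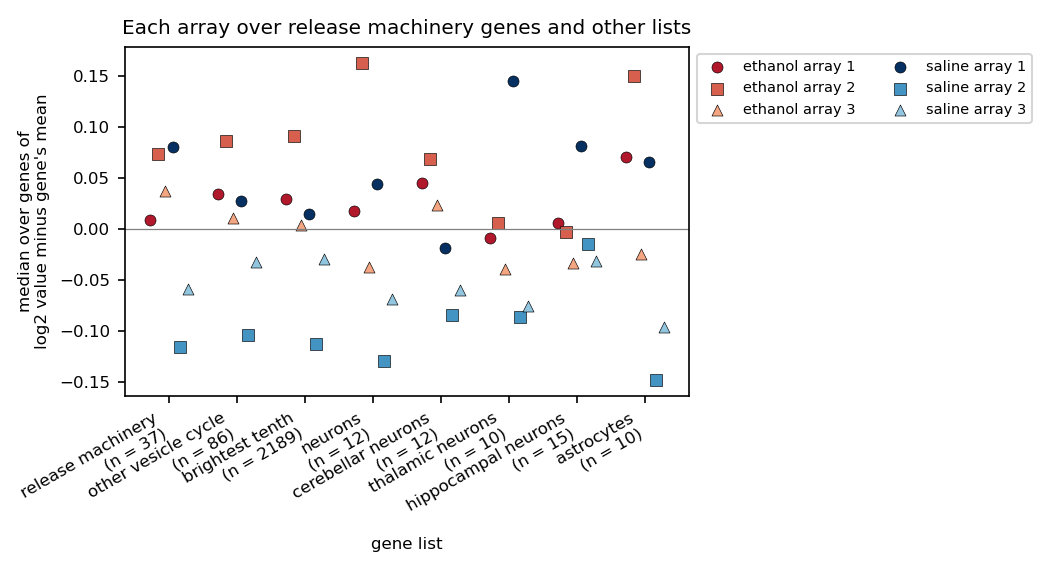
For each gene list, the median over its genes of the log2 value minus the gene's mean is plotted for each of the 6 arrays. Saline array 1 stood 0.08 above the mean for release machinery genes and 0.15 above for thalamic genes, but 0.01 above for the other genes of the brightest group and 0.02 below for cerebellar genes.

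Markers of neurons in general and of astrocytes lay higher in ethanol, like the members and most other bright genes. Over all genes 57.2% lay higher with a median of 0.02, and among the bright genes outside the members 92.7% with a median of 0.08. The difference was above 0 in 11 of 12 pan-neuronal genes with a median of 0.09, in 10 of 10 astrocyte genes with a median of 0.10, in 11 of 12 cerebellar genes with a median of 0.08 and in 7 of 8 endothelial genes with a median of 0.12. Hippocampal genes were above 0 in 7 of 15, with a median of 0.00, thalamic genes in 5 of 10 (-0.01), oligodendrocyte genes in 7 of 9 (0.03) and microglial genes in 4 of 9 (-0.02). The pan-neuronal list summed to 119.74 to 122.12 in ethanol and 118.62 to 120.92 in saline, and their part in the members' difference was not tested.

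Other genes of the vesicle cycle were also mostly above 0, and none was called. Of 94 further genes for transmitter loading, docking, clathrin coats and vesicle acidification, 86 were measured, of which 72 lay higher and 14 lower with a median of 0.08, and 14 were higher without overlap. Over all genes 57.2% lay higher and 5.74% did so without overlap, and among the bright genes outside the members 92.7% and 13.0%. Slc17a7, the vesicular glutamate transporter of cortical, hippocampal and cerebellar granule neurons, was the only one with an unadjusted p under 0.05 in limma. It read 11.10, 11.08 and 10.97 in ethanol and 10.93, 10.76 and 10.83 in saline, a difference of 0.21 ± 0.08 (unadjusted p = 0.0372, adjusted p = 0.857). Saline array 1 was highest for 20 of the 86 and for 14 of the 37 members, against 21.2% of all genes and 17.1% of the other bright genes.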

How the data were processed

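The deposited table holds log2 values of 41345 rows on 6 arrays. The log2 scale was read from their range, since the authors' background correction, summarization and normalization are not given in the sources used here. Any compression of differences by those steps remains. The genome build was mm 10, per the submitters' processing notes. The arrays were Affymetrix whole-transcript arrays given biotin-labelled material from 200 ng of RNA, per the labels. Names of genes are those of the platform annotation (23521 rows name 1 gene, 1814 several and 16010 none here) and gene and promoter positions from RefSeq, GRCm38.p6.

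Every row was fitted with limma 3.58.1 in R 4.3.3 (no covariate, two-sided, 4 residual and 2.94 prior degrees of freedom) and p-values were adjusted over all rows at 0.05. The fit was tested on simulated data. The replicate is the array, a pool of 3 mice, so a p-value reflects variation from pool to pool, and 3 arrays a group limit the precision. The members and the lists were chosen with earlier results of these data known. Values on every array are given for members with an unadjusted p under 0.05, with groups that do not overlap, among the 3 largest differences in each direction or the 3 widest ranges, and for a few singled out in the text. Alternatives were other scalings, priors, weights, row filters, the second row of a gene, a replicate block and leaving out each array.

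The labels give same-numbered arrays of both groups only a shared number, and whether they share litters is not stated.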

Additional observations from a re-analysis of the deposited data

How the results depend on the processing

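Across 16 alternatives, Vamp1, Cplx1, Syn2, Sv2b, Sv2c, Cplx3, Stx1a and Unc13b kept their direction. Quantile normalization left 19 members higher and 18 lower, and cyclic loess 17 and 20, with a median of -0.0091. Median centring gave 4 members without overlap, all 4 with ethanol higher, and 1 at an unadjusted p under 0.05. That last count was 2 with limma's trended, robust prior and 1 with array weights. Of all 41345 rows, 2225 were at that level under centring, 2260 with that prior and 2443 with array weights, against 2290 in the main fit. Under centring 70.5% of all genes lay higher, against 57.2% as deposited. The share of all genes without overlap was not counted there. Rows at an unadjusted p under 0.05 numbered 1200 when only rows naming 1 gene were fitted and 1132 when only the brighter rows were, where fewer rows were tested. Taking the second row of a gene gave 5 members lower.

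Leaving out 1 array gave 0 to 1 called row (1 without saline replicate 3) and 1604 to 3846 rows at an unadjusted p under 0.05. It gave 0 to 6 members at that level, 3 to 7 members lower, and 1 to 25 members without overlap, 1 to 25 of them higher. Each upper end but the called row and the members lower was without saline replicate 1. There 5.83% of all genes were at that level and 18.2% were higher without overlap. These shares were not counted for the other arrays. Differences between paralogs near 0 changed sign: Unc13a minus Unc13c lay between -0.0711 and 0.0964, Syt1 minus Syt2 between -0.059 and 0.0362, Rab3a minus Rab3c between -0.0129 and 0.0622, Rims1 minus Rims2 between -0.0385 and 0.0326 and Syn1 minus Syn2 between -0.0821 and 0.0573. The cause was not tested in any of these.

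With the replicate block, 0 rows were called and 2351 had an unadjusted p under 0.05, against 2290 without it, and 34 members lay higher. Deviations of same-numbered arrays correlated at 0.10, -0.06 and 0.04, and those of differently numbered arrays at -0.13 to 0.10. With 3 arrays a group, these values cannot tell whether the numbers pair the arrays. The number of arrays, compression of the values and the uncertain age and tissue limit what these data can show.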
